A study of Mus musculus with 12 samples.

Results

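The genes described here encode the chains of the collagens. They were taken from the probe annotation of the arrays as every symbol made of Col, a number, a and a number. This gave 42 of the 18193 genes measured. Where a gene had several probe sets, the one with the greatest mean signal on the 12 arrays was read. The 42 genes had 82 probe sets between them, 15 genes having 1 and 27 several.

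Collagens are triple helices of 3 chains, so the chain genes a cell transcribes set which collagen types it can assemble. Fibrillar collagens form the tension-bearing fibrils of skin, bone and cartilage, network collagens form sheets such as those of basement membranes, and FACIT collagens (fibril-associated collagens with interrupted triple helices) decorate fibril surfaces. Fibroblasts are a main source of collagens I, III, V and VI, while collagens II and X are known as products of cartilage. By these classes there were 11 fibrillar genes, 6 basement membrane network genes, 3 short-chain network genes, 9 FACIT and related genes, 5 genes of the beaded-filament collagen VI, 1 anchoring-fibril gene, 2 multiplexins, 4 membrane-spanning collagens and Col26a1, which was placed in no class.

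Transcripts were measured on 12 Affymetrix arrays in embryonic fibroblasts (MEFs) of C57BL/6 mice, which are cultured connective tissue cells, in 6 groups of 2. S5 MEFs lacked Stat5 and carried a STAT5A vector brought in by a retrovirus, KO MEFs lacked Stat5, and WT MEFs were wild type. Each genotype was given growth hormone for 120 minutes or left unstimulated, a design that asks which effects of the hormone pass through STAT5, the transcription factor its receptor activates. The series' design text calls the duplicates biological, and no label gives a vehicle-treated group, a KO group with an empty vector or the number of clones or embryos behind a genotype. Genotype and cell preparation therefore cannot be told apart. Values are log2 expression values, on which 1 unit is a 2-fold difference. Levels of different genes come from different probe sets and are not set against each other.

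The deleted genes were low in KO MEFs. A Stat5a probe set gave at most 2.42 in S5 and 2.47 in KO MEFs, against 11.45 to 12.39 in WT MEFs, and a second one gave 9.04 to 9.9 in S5 and at most 2.25 in KO and 2.38 in WT MEFs. Stat5b gave at most 1.96 in S5 and 2.01 in KO MEFs, against 8.98 to 9.39 in WT MEFs. Array medians lay between 2.86 and 3.02, the 2 arrays of a group correlated with r of 0.989 to 0.996 over 9921 genes, which are no independent replicates, and 2 arrays per group limit the precision. Values below 4 formed a low mode, and a bound of 4, chosen after the data were seen, was used for folds. Where 1 side of a comparison lay below it on every array, 4 replaced that side and the text says "at least" before the fold.

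Of the 42 genes, 22 were above this bound on all 12 arrays, 9 on some of them, and 11 on none. The 11 without a value above 4 were Col4a3, Col4a4, Col6a4, Col6a5, Col9a2, Col11a2, Col13a1, Col17a1, Col19a1, Col22a1 and Col26a1, which include Col4a3 and Col4a4, chains of the kidney filter, 2 of the 5 collagen VI genes and the epithelial Col17a1. The 9 that crossed it were Col2a1, Col4a6, Col9a1, Col10a1, Col15a1, Col20a1, Col23a1, Col24a1 and Col25a1. Above it throughout were 8 of 11 fibrillar, 3 of 6 basement membrane, 3 of 5 collagen VI and 4 of 9 FACIT and related genes. None of the 4 membrane-spanning genes stayed above it.

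**Figure D1:**
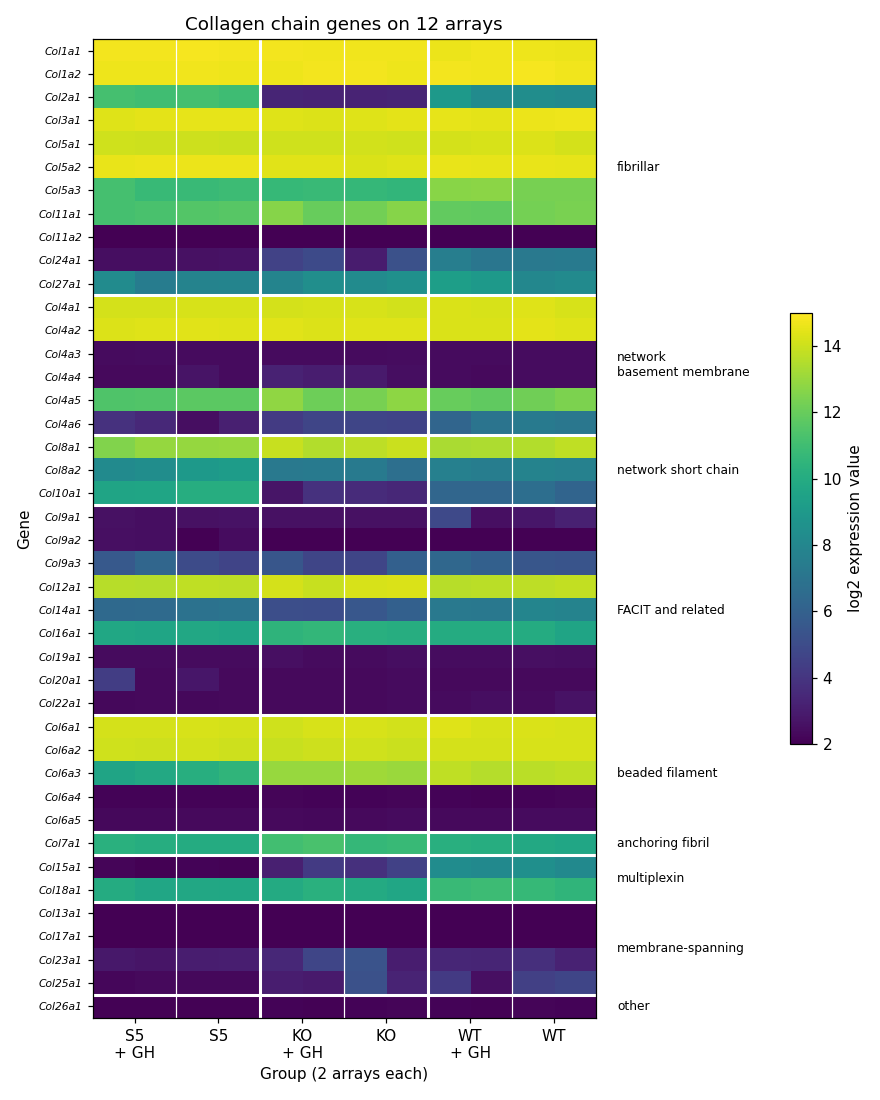
Log2 expression value (colour) of the 42 collagen chain genes (rows, by class) on the 12 arrays (columns, 2 per group; GH is growth hormone). Most rows hold 1 colour across the arrays, and Col2a1, Col10a1, Col6a3, Col15a1, Col24a1 and Col4a6 change colour between genotypes.

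The sequences just before the start sites of 4 genes are printed because 3 of them each stand for a genotype pattern described further on (Col10a1 highest in S5, Col6a3 lowest in S5 and Col15a1 highest in WT MEFs) and the fourth is the one member with a STAT5 motif. They are the 250 bases upstream of the RefSeq start (build GRCm38.p6), 5′ to 3′ on the gene's strand, and capitals mark motifs searched on both strands. These were TTCNNNGAA, the consensus bound by STAT5. The TATA box was searched as TATAAA. The CAAT box was searched as CCAAT, and the GC box of SP1 was searched as GGGCGG. Col10a1 (chr10:34389731-34389980, plus strand) encodes the chain of hypertrophic cartilage collagen, Col6a3 (chr1:90843972-90844221, minus strand) the third chain of collagen VI, Col15a1 (chr4:47207762-47208011, plus strand) a multiplexin of basement membrane zones, and Col6a5 (chr9:105960644-105960893, minus strand) a further collagen VI chain.
Col10a1: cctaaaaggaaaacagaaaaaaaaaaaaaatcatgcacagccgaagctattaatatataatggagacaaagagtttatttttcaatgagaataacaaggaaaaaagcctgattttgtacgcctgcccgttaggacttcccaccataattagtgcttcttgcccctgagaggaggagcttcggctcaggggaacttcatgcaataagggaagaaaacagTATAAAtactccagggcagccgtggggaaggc
Col6a3: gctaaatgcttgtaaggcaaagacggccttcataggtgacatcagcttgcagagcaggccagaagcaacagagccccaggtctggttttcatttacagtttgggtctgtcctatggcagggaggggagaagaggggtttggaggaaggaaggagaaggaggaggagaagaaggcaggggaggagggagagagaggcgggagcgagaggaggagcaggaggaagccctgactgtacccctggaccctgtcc
Col15a1: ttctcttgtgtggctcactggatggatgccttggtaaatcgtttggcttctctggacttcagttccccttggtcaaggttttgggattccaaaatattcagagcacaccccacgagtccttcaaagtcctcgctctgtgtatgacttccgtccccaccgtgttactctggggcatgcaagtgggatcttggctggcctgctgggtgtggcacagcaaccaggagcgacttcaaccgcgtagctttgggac
Col6a5: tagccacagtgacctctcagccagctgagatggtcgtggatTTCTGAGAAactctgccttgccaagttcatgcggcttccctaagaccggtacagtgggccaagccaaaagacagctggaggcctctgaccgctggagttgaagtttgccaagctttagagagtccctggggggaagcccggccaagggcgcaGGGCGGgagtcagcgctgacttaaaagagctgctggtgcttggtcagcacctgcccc

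In these lines Col10a1 holds TATAAA, starting at position -32 from the start site, and Col6a3 and Col15a1 hold none of the 4 motifs. TTCNNNGAA was found before Col6a5 only, 1 of the 33 collagen genes with a sequence in the table, and in 7.02 percent of all 32851 upstream windows. TATAAA was found for 5 of the 33 genes (12.4 percent of all windows), CCAAT for 13 (33.8 percent) and GGGCGG for 20 (32.7 percent). Col6a5 itself lay between 2.29 and 2.38 on the 12 arrays, below the bound.

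On their probe sets of highest signal, the abundant chains of fibroblast collagen differed by at most 0.24 between genotype means. Col1a1 and Col1a2, the chains of collagen I, Col3a1, the chain of collagen III, Col5a1 and Col5a2 of collagen V, Col4a1 and Col4a2 of the basement membranes, and Col6a1 and Col6a2 of collagen VI all averaged 14 or more. The median range of these 9 genes over the 12 arrays was 0.28, as was that of the 223 genes measured that high. The highest value of any probe set was 15.95. Probe sets of lower signal gave larger differences for 5 of these genes. One for Col5a1 averaged 11.27 in S5, 11.34 in KO and 11.98 in WT MEFs (S5 minus WT -0.71, KO minus WT -0.64). One for Col3a1 lay at 13.17 to 13.46 in S5, 12.84 to 13.22 in KO and 13.22 to 13.65 in WT MEFs (KO minus WT -0.43). One for Col5a2 averaged 13.55 in S5, 12.71 in KO and 13.12 in WT MEFs (S5 minus KO 0.84). A Col6a2 one gave -0.35 and a low-signal Col1a2 one (4.58 to 6.08) gave 0.38 for KO minus WT. With the mean of probe sets Col5a1 was -0.42 for S5 minus WT (adjusted p = 0.000178) and -0.41 for KO minus WT (adjusted p = 0.000299), Col3a1 -0.31 for KO minus WT (adjusted p = 0.00189) and 0.20 for S5 minus KO (adjusted p = 0.0149), and Col5a2 -0.29 for KO minus WT (adjusted p = 0.0018), 0.54 for S5 minus KO (adjusted p = 6.49e-05) and 0.25 for S5 minus WT (adjusted p = 0.00315).

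Col1a1 gave 14.77 and 14.76 in hormone-treated S5 MEFs, 14.84 and 14.76 in untreated S5, 14.78 and 14.70 in treated KO, 14.72 and 14.70 in untreated KO, 14.62 and 14.72 in treated WT and 14.69 and 14.62 in untreated WT MEFs. Col1a2 gave, in the same order of groups, 14.67 and 14.66, 14.70 and 14.66, 14.67 and 14.75, 14.77 and 14.65, 14.75 and 14.73, and 14.80 and 14.72. Col3a1 gave 14.37 and 14.48, 14.54 and 14.52, 14.37 and 14.31, 14.38 and 14.46, 14.52 and 14.48, and 14.64 and 14.65. For Col1a2 the KO arrays overlapped those of both other genotypes, the 4 S5 arrays of Col1a1 all lay above the 4 WT arrays, and Col3a1 was lower on the KO than on the WT arrays.

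Col5a1 gave, in that order, 14.08 and 14.01, 14.01 and 13.96, 14.08 and 14.06, 14.13 and 14.05, 14.14 and 14.20, and 14.30 and 14.15. Col5a2 gave 14.59 and 14.63, 14.61 and 14.63, 14.41 and 14.40, 14.28 and 14.39, 14.58 and 14.51, and 14.58 and 14.54. Col5a1 was lower on all S5 and all KO arrays than on all WT arrays, and Col5a2 lower on all KO arrays than on all S5 or WT arrays. For the paired basement membrane chains, Col4a1 gave 14.17 and 14.17, 14.19 and 14.20, 14.14 and 14.21, 14.19 and 14.10, 14.24 and 14.22, and 14.34 and 14.21. Col4a2 gave 14.33 and 14.35, 14.41 and 14.38, 14.42 and 14.30, 14.37 and 14.37, 14.24 and 14.25, and 14.45 and 14.34. These 2 genes lie head to head in the RefSeq annotation and share their promoter region, and neither passed the test in any genotype comparison: S5 minus KO was 0.02 (95 percent interval -0.06 to 0.11) for Col4a1 and 0.00 (-0.08 to 0.09) for Col4a2.

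S5 minus KO was 0.06 for Col1a1 (95 percent interval -0.03 to 0.14) and -0.04 for Col1a2 (-0.13 to 0.04), and KO minus WT was 0.06 (-0.02 to 0.15) and -0.04 (-0.12 to 0.04). The test was passed by Col3a1 (-0.19, adjusted p = 0.00344), Col5a2 (-0.18, 0.0028) and Col6a2 (-0.20, 0.00265) for KO minus WT, by Col5a2 for S5 minus KO (0.24, 0.000599), and by Col1a1 (0.12, 0.0295), Col5a1 (-0.18, 0.00889) and Col6a2 (-0.13, 0.0177) for S5 minus WT. Centring each array on its median moved the median of all genes by 0.17 for KO minus WT and 0.15 for S5 minus WT. The small differences then became -0.02 for Col3a1, -0.01 for Col5a2 and -0.03 for Col6a2 (KO minus WT), and -0.03 for Col5a1 and 0.02 for Col6a2 (S5 minus WT), none of which passed. Centring also brought past the threshold Col1a1 (0.23, adjusted p = 0.0245) and Col4a2 (0.21, adjusted p = 0.0404) for KO minus WT and Col5a2 (0.21, adjusted p = 0.0246) for S5 minus WT, while Col1a1 for S5 minus WT became 0.27 (adjusted p = 0.0109). On the reported probe sets, differences of this size from WT MEFs thus depend on whether arrays are centred. Quantile normalization moved the median of all genes by 0.01 for KO minus WT and 0.03 for S5 minus WT. It kept the calls that centring lost. It also brought past the threshold Col1a2 (-0.11, adjusted p = 0.0152) and Col3a1 (-0.11, adjusted p = 0.0198) for S5 minus WT. Col3a1 then passed for S5 minus KO too (0.13, adjusted p = 0.0149). Col1a1 in S5 minus WT missed the threshold with the mean of probe sets (0.09, adjusted p = 0.0731), and also without treated S5 replicate 1 or 2, untreated S5 replicate 1, treated WT replicate 1 or untreated WT replicate 2 (adjusted p 0.0715 to 0.104). Without untreated WT replicate 2, Col4a1 (-0.13, adjusted p = 0.0308) and Col5a1 (-0.15, adjusted p = 0.0216) passed for KO minus WT. Col3a1 passed for S5 minus KO without treated S5 replicate 1 (0.12, adjusted p = 0.0338) and for S5 minus WT without treated S5 replicate 2 (-0.12, adjusted p = 0.0263).

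Across all 42 genes, 17 passed the test for S5 minus KO (adjusted p under 0.05 in limma's moderated test over 18193 genes), 6 higher and 11 lower in S5 MEFs. This is 40.5 percent of the collagen genes, beside 37.2 percent of all genes. For S5 minus WT 20 passed, 5 higher and 15 lower, or 47.6 percent beside 44.8 percent. For KO minus WT 17 passed, 4 higher and 13 lower, or 40.5 percent beside 38.2 percent. These shares lay close to those of genes in general. Without the genes below the bound on all 12 arrays they were 15 of 31 beside 55.6 percent, 18 of 31 beside 66.7 percent and 16 of 31 beside 57.4 percent.

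Centring the arrays gave 10 higher and 9 lower for KO minus WT (52.6 percent higher, against 23.5 percent as deposited). For S5 minus WT it gave 7 higher and 11 lower (38.9 percent, against 25.0 percent). Over all genes called, the share higher also rose with centring, from 54.9 to 76.4 percent for KO minus WT. For S5 minus WT it rose from 55.1 to 67.5 percent. Centring gives every gene the same shift in a comparison, so this change in balance is no result about the collagen genes. Quantile normalization gave 4 higher and 12 lower for KO minus WT (25.0 percent higher) and 6 higher and 17 lower for S5 minus WT (26.1 percent). The median log2 difference was -0.02 for the 42 genes and -0.02 for all genes (S5 minus KO), -0.08 and -0.02 (S5 minus WT), and -0.07 and 0.00 (KO minus WT). The median size, sign aside, was 0.24 and 0.16, 0.19 and 0.21, and 0.28 and 0.17.

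**Figure D2:**
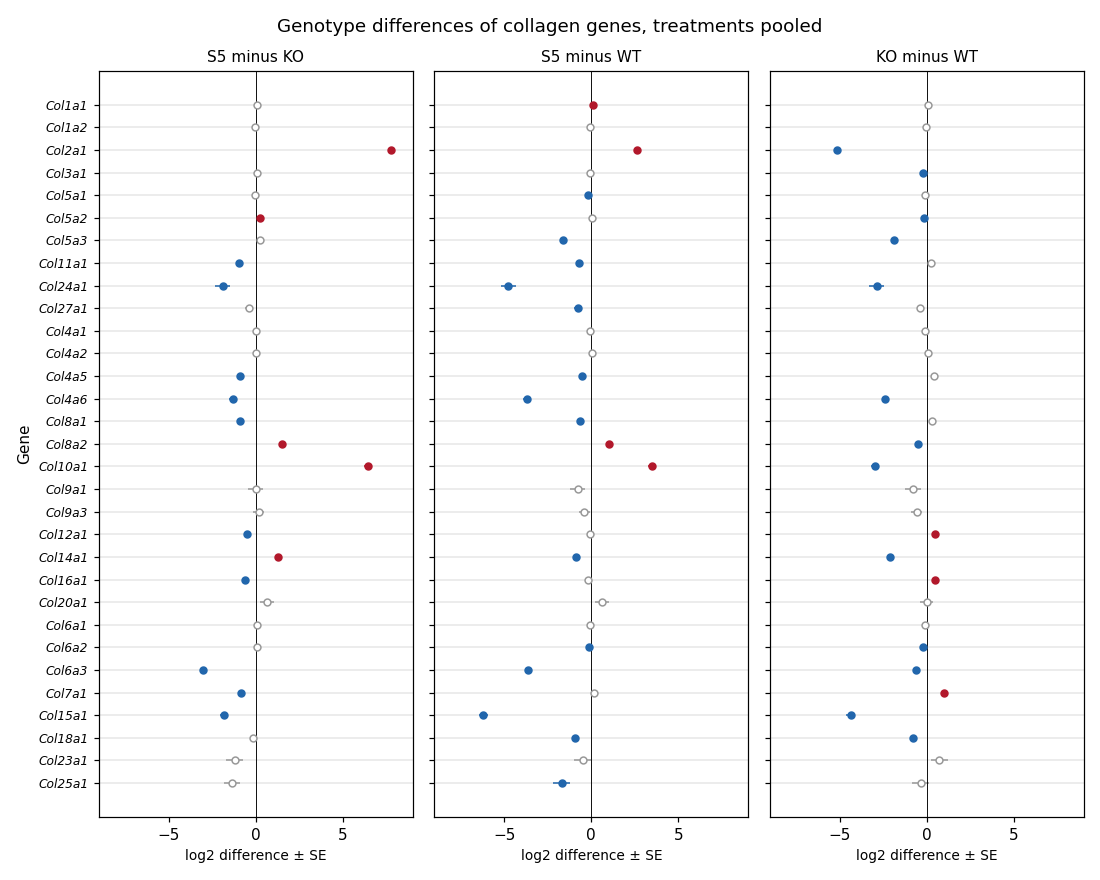
Log2 difference (x axis) with its SE (bars) for the 31 collagen genes with a value above 4 on any array (y axis, by class), for S5 minus KO, S5 minus WT and KO minus WT. Filled points passed the test, red higher and blue lower; Col2a1 and Col10a1 lie far to the right in both S5 panels, and Col15a1 far to the left against WT MEFs.

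The cartilage collagen genes Col2a1 and Col10a1 had the largest S5 minus KO differences of the 42 genes. Both were highest in S5 MEFs, intermediate in WT and below the bound in KO MEFs. Col2a1, the chain of cartilage collagen II, gave 11.16 and 11.02 in treated and 11.19 and 10.95 in untreated S5 MEFs, 3.33 and 3.29 in treated and 3.31 and 3.33 in untreated KO MEFs, and 9.05 and 8.26 in treated and 8.37 and 8.23 in untreated WT MEFs. No array of one genotype reached those of another. S5 minus KO was 7.76 (SE 0.16, at least 135-fold, adjusted p = 3.5e-08), S5 minus WT 2.60 (6.07-fold, adjusted p = 9.66e-06) and KO minus WT -5.16 (at least 22.3-fold lower, adjusted p = 5.39e-07).

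Col10a1 gave 9.59 and 9.65 in treated and 10.11 and 10.11 in untreated S5 MEFs, 2.75 and 3.87 in treated and 3.62 and 3.45 in untreated KO MEFs, and 6.30 and 6.31 in treated and 6.72 and 6.21 in untreated WT MEFs. The order S5, WT, KO held on every array here too. S5 minus KO was 6.44 (SE 0.23, at least 58.2-fold, adjusted p = 6.26e-07), S5 minus WT 3.48 (11.2-fold, adjusted p = 1.48e-05) and KO minus WT -2.96 (at least 5.22-fold lower, adjusted p = 5.35e-05).

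Other cartilage markers did not form the same pattern together. Of 7 chondrocyte markers, Matn1, Snorc and Chad, genes of cartilage matrix proteins, were below the bound on all arrays. Acan, the main cartilage proteoglycan, averaged 2.64 in S5, 2.61 in KO and 5.57 in WT MEFs. Comp, a matrix protein of cartilage and tendon, averaged 7.83 in S5, 2.58 in KO and 5.12 in WT MEFs, and Hapln1, which links proteoglycan to hyaluronan, 7.06, 4.08 and 7.22. The mean of the 7 markers per array lay between 4.15 and 4.65 in S5, 3.44 and 3.64 in KO and 4.39 and 4.73 in WT MEFs. The 3 osteoblast markers measured were below the bound on every array. Among other chains of cartilage collagens IX and XI, Col11a2 lay at or below 2.0, Col9a2 at or below 2.53, and Col9a1 was above 4 on 1 treated WT array (4.89). Col9a3, the third chain of collagen IX, was above 4 on all arrays, averaged 5.39 in S5, 5.23 in KO and 5.80 in WT MEFs and passed no genotype test.

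Among 9 regulators of cartilage and bone, 4 were higher and 1 lower for S5 minus KO, 3 and 1 for S5 minus WT, and 1 and 4 for KO minus WT (55.6, 44.4 and 55.6 percent, beside 37.2, 44.8 and 38.2 percent of all genes). Runx3, a factor of cartilage maturation, averaged 8.63 in S5, 2.16 in KO and 6.88 in WT MEFs, and was at least 24.8-fold higher in S5 than in KO MEFs (adjusted p = 1.04e-08). Its groups had the same order as those of Col2a1 and Col10a1. Sox6, a partner of SOX9 on cartilage genes, averaged 6.64 in S5, 4.23 in KO and 4.64 in WT MEFs (S5 minus KO 2.41, adjusted p = 4.55e-06). Sox9, the main activator of Col2a1, averaged 7.22 in S5, 8.98 in KO and 7.64 in WT MEFs, so it was lower in S5 than in KO MEFs (-1.76, adjusted p = 7.32e-05), though not on the untreated arrays alone (-0.53, adjusted p = 0.129). Sox9 also fell with growth hormone in S5 MEFs (5.73 and 6.17 treated, against 8.49 and 8.5 untreated, adjusted p = 0.00104), where Col2a1 had a log2 difference of 0.03 that did not pass. Col10a1 averaged 9.62 in treated and 10.11 in untreated S5 MEFs and did not pass with all 12 arrays. Of the 9 regulators, 3 (Sox9, Sox6 and Dlx5) were lower with the hormone in S5 MEFs, or 33.3 percent beside 7.88 percent of all genes. The Sox6 and Dlx5 calls were lost with some single arrays left out. Sox9 alone passed the tests of a difference between responses for S5 minus KO and S5 minus WT.

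Col6a3 was the collagen VI gene that set S5 MEFs apart. Collagen VI is assembled from one chain each of Col6a1, Col6a2 and a longer chain such as that of Col6a3. Col6a3 gave 9.58 and 9.84 in treated and 10.14 and 10.53 in untreated S5 MEFs, 12.99 and 12.98 in treated and 13.16 and 13.03 in untreated KO MEFs, and 13.75 and 13.56 in treated and 13.65 and 13.74 in untreated WT MEFs. All 4 S5 arrays lay below every other array. S5 minus KO was -3.02 (SE 0.10, 8.09-fold lower, adjusted p = 3.96e-07), S5 minus WT -3.65 (12.6-fold lower, adjusted p = 1.45e-07) and KO minus WT -0.64 (1.55-fold lower, adjusted p = 0.00169).

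Its partner chains did not follow. Col6a1 gave 14.17 and 14.18, 14.22 and 14.16, 14.04 and 14.21, 14.22 and 14.10, 14.34 and 14.19, and 14.25 and 14.21 in treated and untreated S5, KO and WT MEFs in turn, with S5 minus KO at 0.04 (95 percent interval -0.09 to 0.17). Col6a2 gave 14.07 and 14.02, 14.09 and 14.02, 13.93 and 13.99, 14.05 and 13.94, 14.15 and 14.15, and 14.22 and 14.19, with S5 minus KO at 0.07 (-0.01 to 0.15). The range over 12 arrays was 4.17 for Col6a3, 0.29 for Col6a1 and 0.28 for Col6a2. The remaining chains Col6a4 and Col6a5 were below the bound throughout. When the array untreated WT replicate 1, untreated S5 replicate 2 or treated S5 replicate 2 was left out, Col6a2 no longer passed for S5 minus WT (adjusted p 0.0562, 0.0666 and 0.0616).

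Col15a1, Col24a1 and Col4a6 formed another pattern, with WT MEFs highest and S5 MEFs below the bound. Col15a1 gave 2.17 and 2.02 in treated and 2.15 and 2.06 in untreated S5 MEFs, 3.16 and 4.21 in treated and 3.79 and 4.53 in untreated KO MEFs, and 8.34 and 8.18 in treated and 8.48 and 8.16 in untreated WT MEFs. The 3 genotypes did not overlap. KO minus WT was -4.37 (SE 0.25, adjusted p = 1.17e-05), and S5 MEFs were at least 19.6-fold below WT MEFs (adjusted p = 1.17e-06). Between S5 and KO MEFs the difference was -1.82 (adjusted p = 0.000896). No fold is given for either comparison with KO MEFs, whose mean lay below 4. The related multiplexin Col18a1, whose C-terminal fragment is endostatin, averaged 9.81 in S5, 9.95 in KO and 10.73 in WT MEFs. It was lower in S5 than in WT MEFs (-0.92, adjusted p = 0.000189) and in KO than in WT MEFs (-0.78, adjusted p = 0.000637).

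Col24a1, a minor fibrillar chain, gave 2.47 and 2.48 in treated and 2.58 and 2.63 in untreated S5 MEFs, 4.55 and 4.93 in treated and 2.99 and 5.24 in untreated KO MEFs, and 7.55 and 7.10 in treated and 7.28 and 7.32 in untreated WT MEFs. The untreated KO arrays differed by more than 2 units, and the 3 genotypes still did not overlap. S5 MEFs were at least 9.93-fold below WT MEFs (log2 difference -4.77, adjusted p = 7.31e-05), and KO minus WT was -2.88 (7.37-fold lower, adjusted p = 0.00141). The S5 minus KO difference was -1.89 (adjusted p = 0.011), which did not pass on the untreated arrays alone (-1.51, adjusted p = 0.125).

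Col4a6, a basement membrane chain, gave 3.84 and 3.50 in treated and 2.48 and 3.16 in untreated S5 MEFs, 4.24 and 4.71 in treated and 4.72 and 4.60 in untreated KO MEFs, and 6.26 and 7.0 in treated and 7.33 and 7.14 in untreated WT MEFs. The genotypes did not overlap. S5 MEFs were at least 7.64-fold below WT MEFs (adjusted p = 8.66e-06) and KO MEFs 5.16-fold below WT MEFs (adjusted p = 0.000127). Set against KO MEFs, S5 MEFs differed by -1.32 (adjusted p = 0.00237), and -0.81 on the treated arrays alone (adjusted p = 0.104). A second Col4a6 probe set stayed at or below 3.26, so with the mean of probe sets the differences shrank to -2.06 (S5 minus WT), -1.38 (KO minus WT) and -0.67 (S5 minus KO) and still passed.

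The neighbour of Col4a6, Col4a5, starts 1343 bases away in the opposite direction and encodes the chain it assembles with. Col4a5 gave 11.43 and 11.49 in treated and 11.70 and 11.70 in untreated S5 MEFs, 12.82 and 12.12 in treated and 12.34 and 12.77 in untreated KO MEFs, and 11.98 and 11.82 in treated and 12.19 and 12.42 in untreated WT MEFs. On this probe set all S5 arrays were the lowest, and KO and WT arrays overlapped. Between S5 and KO MEFs the difference was -0.93 (1.91-fold lower, adjusted p = 0.00289). S5 minus WT was -0.52 (adjusted p = 0.0341), and this call was lost when any 1 of the 8 arrays compared was left out (adjusted p 0.0508 to 0.104). KO minus WT did not pass. On a second Col4a5 probe set the KO arrays (11.06 to 11.45) did not overlap the WT arrays (10.24 to 10.65). Its KO minus WT difference was 0.78 and its S5 minus KO difference -1.29. Its S5 arrays (9.49 to 10.38) overlapped those of WT MEFs.

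**Figure D3:**
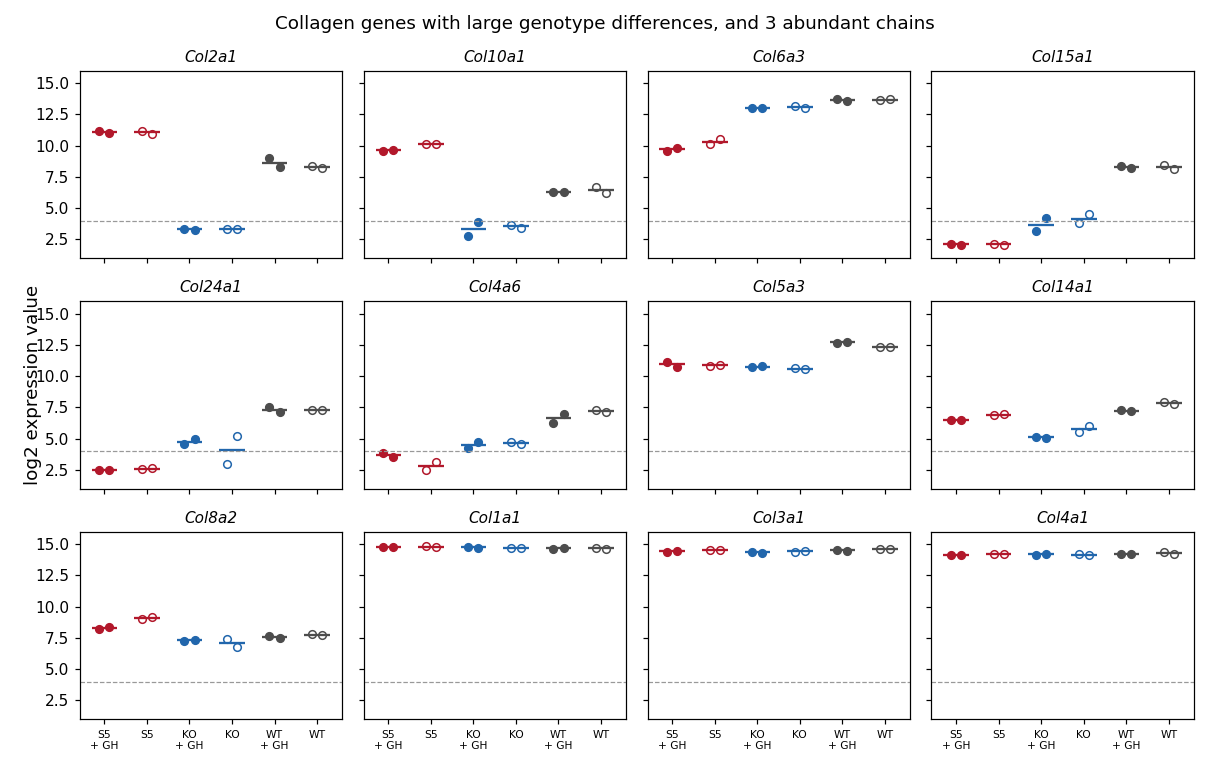
Log2 expression value (y axis) of 12 collagen genes on each array, by group (x axis; filled points growth hormone, open points untreated, bars group means, dashed line the bound of 4). Col2a1 and Col10a1 are highest in S5 and lowest in KO MEFs, Col6a3 is lowest in S5 MEFs, Col15a1, Col24a1 and Col4a6 are highest in WT MEFs, and Col1a1, Col3a1 and Col4a1 stay near the top in every group.

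A pair of further minor chains were highest in WT MEFs. Col5a3, the third chain of collagen V, gave 11.16 and 10.76 in treated and 10.83 and 10.91 in untreated S5 MEFs, 10.72 and 10.80 in treated and 10.65 and 10.54 in untreated KO MEFs, and 12.68 and 12.75 in treated and 12.34 and 12.33 in untreated WT MEFs. The 4 WT arrays stood above the others, and S5 and KO arrays overlapped. S5 minus WT was -1.61 (3.06-fold lower, adjusted p = 3.94e-06) and KO minus WT -1.85 (3.60-fold lower, adjusted p = 3.44e-06). With a second probe set that stayed below 3 averaged in, these were -0.95 and -1.05 and passed.

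Col14a1, a FACIT collagen that binds the surface of collagen I fibrils, gave 6.46 and 6.49 in treated and 6.88 and 6.98 in untreated S5 MEFs, 5.12 and 5.08 in treated and 5.53 and 6.00 in untreated KO MEFs, and 7.28 and 7.21 in treated and 7.92 and 7.79 in untreated WT MEFs. The order WT, S5, KO held on every array. The S5 minus KO difference was 1.27 (2.41-fold higher, adjusted p = 3.8e-05), S5 minus WT -0.85 (1.80-fold lower, adjusted p = 0.000256) and KO minus WT -2.11 (4.33-fold lower, adjusted p = 3.9e-06). With the mean of its 3 probe sets they were 0.66, -0.44 and -1.10, and each passed.

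Several collagens were highest in KO MEFs. Col7a1, whose chains form the anchoring fibrils of skin, gave 10.27 and 10.12 in treated and 10.01 and 9.98 in untreated S5 MEFs, 11.05 and 11.25 in treated and 10.67 and 10.74 in untreated KO MEFs, and 10.18 and 10.09 in treated and 9.86 and 9.69 in untreated WT MEFs. Every KO array stood above the other 8. Set against KO MEFs, S5 MEFs differed by -0.83 (1.78-fold lower, adjusted p = 3.23e-05), and KO minus WT was 0.98 (1.97-fold higher, adjusted p = 1.9e-05). The FACIT genes Col12a1 and Col16a1 were highest in KO MEFs too. Col12a1 averaged 13.64 in S5, 14.15 in KO and 13.69 in WT MEFs (S5 minus KO -0.51, adjusted p = 0.000349; KO minus WT 0.46, adjusted p = 0.000657). Col16a1 averaged 9.70 in S5, 10.35 in KO and 9.90 in WT MEFs (S5 minus KO -0.65, adjusted p = 0.000771; KO minus WT 0.45, adjusted p = 0.00476), and KO minus WT did not pass on untreated arrays alone (0.35, adjusted p = 0.0818).

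The short-chain network genes Col8a1 and Col8a2, whose products build the sheet under endothelial cells of the cornea, moved in opposite directions in S5 MEFs. Col8a1 gave 12.56 and 12.94 in treated and 12.93 and 12.98 in untreated S5 MEFs, 13.92 and 13.51 in treated and 13.72 and 13.97 in untreated KO MEFs, and 13.35 and 13.38 in treated and 13.51 and 13.74 in untreated WT MEFs. Col8a2 gave 8.20 and 8.37, 9.02 and 9.21, 7.27 and 7.32, 7.38 and 6.75, 7.64 and 7.50, and 7.79 and 7.70 in the same groups. On every S5 array Col8a1 lay below, and Col8a2 above, the arrays of both other genotypes. Between S5 and KO MEFs the difference was -0.93 for Col8a1 (adjusted p = 0.000743) and 1.52 for Col8a2 (adjusted p = 7.09e-05), and S5 minus WT was -0.64 (adjusted p = 0.00382) and 1.04 (adjusted p = 0.000412). Averaging the 3 Col8a1 probe sets widened its S5 minus KO difference to -2.12, and Col8a2 was 0.99 on treated arrays alone (adjusted p = 0.00558). KO minus WT for Col8a2 (-0.48, adjusted p = 0.0234) no longer passed without treated KO replicate 1 or 2, treated WT replicate 1, or untreated WT replicate 1 or 2 (adjusted p 0.0514 to 0.0747).

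Col11a1, a fibrillar chain that nucleates collagen II fibrils, gave 11.18 and 11.25 in treated and 11.52 and 11.63 in untreated S5 MEFs, 12.64 and 11.96 in treated and 12.24 and 12.64 in untreated KO MEFs, and 11.90 and 11.82 in treated and 12.30 and 12.39 in untreated WT MEFs. All S5 arrays were lower than those of KO and WT MEFs, which overlapped. The S5 minus KO difference was -0.98 (1.97-fold lower, adjusted p = 0.00165) and S5 minus WT -0.71 (adjusted p = 0.00645). On a second Col11a1 probe set S5 (9.61 to 9.99), KO (11.16 to 11.34) and WT arrays (10.82 to 11.13) did not overlap. Its differences were -1.47 for S5 minus KO, -1.16 for S5 minus WT and 0.31 for KO minus WT. Col27a1, a fibrillar chain of cartilage, averaged 7.85 in S5, 8.26 in KO and 8.62 in WT MEFs. Its S5 minus WT difference of -0.77 (adjusted p = 0.0146) was -0.26 on untreated arrays (adjusted p = 0.516), -1.29 on treated arrays (adjusted p = 0.0086) and not called without treated WT replicate 1 (adjusted p = 0.0511).

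A few calls concerned values in or near the low mode and carry no fold. Col4a4 averaged 2.44 in S5, 2.92 in KO and 2.39 in WT MEFs, Col9a2 2.35, 1.97 and 1.98, and Col22a1 2.31, 2.34 and 2.46. These 3 genes were below the bound on all 12 arrays, so their calls (Col4a4 in S5 minus KO and KO minus WT, Col9a2 in S5 minus KO and S5 minus WT, Col22a1 in S5 minus WT) are differences within the low mode. Col25a1, a membrane-spanning collagen, averaged 2.27 in S5, 3.63 in KO and 3.97 in WT MEFs, and its S5 minus WT call (adjusted p = 0.0234) was lost without either treated S5, either untreated S5 or either untreated WT array, or without treated WT replicate 1 (adjusted p 0.0509 to 0.0673). The Col22a1 call was lost with 11 of the 12 arrays left out in turn (adjusted p 0.063 to 0.132).

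The WT arrays also carried markers of blood cells. Of 15 macrophage and blood markers, 14 were lower in KO than in WT MEFs and 14 in S5 than in WT MEFs. Of all genes, 38.2 percent (KO minus WT) and 44.8 percent (S5 minus WT) were called. The mean of the list per array was 3.05 to 3.34 in S5, 3.83 to 4.16 in KO and 8.91 to 10.43 in WT MEFs. Itgam was the one marker below the bound on the WT arrays. Smooth muscle markers averaged 11.35 to 11.51 in S5, 9.72 to 9.96 in KO and 12.5 to 12.74 in WT MEFs, and endothelial, epithelial and Schwann cell lists at most 2.94, 2.51 and 2.49 in S5, 2.26, 3.89 and 2.44 in KO, and 2.7, 3.83 and 4.5 in WT MEFs. Not every member of these lists stayed below the bound: Tek did not in S5 and WT, Krt18 and Krt19 in KO and WT, and Sox10 in WT MEFs. The Schwann cell marker Sox10 was called lower in KO and in S5 than in WT MEFs. The part of these markers in the differences from WT MEFs was not tested, and in such bulk samples fewer cells of a type and less RNA per cell cannot be told apart.

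S5 arrays differed in fibroblast markers and in 1 of 2 RNA controls as well. Of 11 fibroblast markers 3 were higher and 7 lower in S5 than in KO MEFs, beside 37.2 percent of all genes called. The mean of the list was 9.32 to 9.85 in S5, 11.74 to 11.87 in KO and 12.28 to 12.44 in WT MEFs. For S5 minus WT, 3 of these markers were higher and 7 lower, beside 44.8 percent of all genes called. The markers named next leave out the 3 that were higher in S5 than in KO MEFs. They therefore do not show the balance of the list. Thy1, a fibroblast surface protein, averaged 3.59 in S5, 14.25 in KO and 14.16 in WT MEFs, and the fibroblast protease Fap 3.84, 8.52 and 10.67. Vim, the gene of the intermediate filament vimentin, averaged 14.90, 14.91 and 14.82. The Gapdh control difference between 3′ and 5′ probe sets was 1.44 to 1.62 on S5, 0.94 to 1.11 on KO and 0.89 to 1.22 on WT arrays. That of the beta-actin control was 3.04 to 3.15 on S5, 2.71 to 3.07 on KO and 2.55 to 3.13 on WT arrays, which overlapped. The part of these values in the S5 differences was not tested.

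Genes that modify, process, bind or degrade collagen were read from lists drawn up with earlier results of these data known, and their shares stand beside the 37.2 (S5 minus KO), 44.8 (S5 minus WT) and 38.2 percent (KO minus WT) of all genes called. Among 19 collagen-modifying enzymes and chaperones, 3 were higher and 8 lower for S5 minus KO (median difference -0.10, beside -0.02 for all genes), 1 and 7 for S5 minus WT (-0.10 beside -0.02), and 5 and 8 for KO minus WT (0.01 beside 0.00). These are 57.9, 42.1 and 68.4 percent of the list. P4ha3, a subunit of prolyl 4-hydroxylase, which stabilises the triple helix, gave 4.63 and 3.86 in treated and 4.65 and 4.22 in untreated S5 MEFs, 10.13 and 9.95 in treated and 10.49 and 10.43 in untreated KO MEFs, and 9.74 and 9.65 in treated and 9.58 and 9.58 in untreated WT MEFs. It was 60.2-fold lower in S5 than in KO MEFs (adjusted p = 1.99e-07) and 39.4-fold lower than in WT MEFs (adjusted p = 3.6e-07). P3h2, a prolyl 3-hydroxylase, was 25.9-fold lower in S5 than in KO MEFs (5.29 in S5, 9.99 in KO and 8.19 in WT MEFs), and P4ha2, another prolyl 4-hydroxylase subunit, 3.06-fold lower. Serpinh1, the collagen chaperone HSP47, averaged 13.57 in S5, 13.62 in KO and 13.90 in WT MEFs, and was picked here after its values were seen.

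Of 11 genes of propeptide removal and crosslinking, 1 was higher and 6 lower for S5 minus KO, 2 and 6 for S5 minus WT, and 4 and 1 for KO minus WT (63.6, 72.7 and 45.5 percent). Adamts3, a protease that trims procollagen, with collagen II as a known substrate, gave 10.41 and 10.72 in treated and 11.35 and 11.50 in untreated S5 MEFs, 5.22 and 6.25 in treated and 6.71 and 6.26 in untreated KO MEFs, and 6.10 and 5.45 in treated and 6.66 and 6.18 in untreated WT MEFs. It was 29.6-fold higher in S5 than in KO MEFs (adjusted p = 6e-06). Pcolce2, an enhancer of propeptide removal, was 16-fold lower in S5 than in KO MEFs (adjusted p = 1.98e-05), and the crosslinking enzyme Loxl4 3.09-fold lower (adjusted p = 1.52e-05). Loxl4 also rose with growth hormone, by 0.62 in S5 (adjusted p = 0.0496) and 0.80 in WT MEFs (adjusted p = 0.025). The S5 call was lost when any 1 array other than a treated WT array was left out (adjusted p 0.0547 to 0.218), and the WT call without either untreated S5 array, treated WT replicate 2 or untreated WT replicate 2 (0.0507 to 0.117).

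Of 9 collagen receptors, 1 was higher and 2 lower for S5 minus KO, 0 and 3 for S5 minus WT, and 2 and 2 for KO minus WT (33.3, 33.3 and 44.4 percent), close to or below the shares of all genes. Mrc2, which takes up cleaved collagen, was 7.0-fold lower in S5 than in KO MEFs (9.83 in S5, 12.64 in KO and 11.92 in WT MEFs). Lair1, a collagen receptor of leukocytes, averaged 2.51 in S5, 2.53 in KO and 6.97 in WT MEFs. Of 8 collagen-degrading proteases, 1 was higher and 5 lower for S5 minus KO, 1 and 5 for S5 minus WT, and 3 and 3 for KO minus WT (75.0 percent each). Ctsk, the collagenolytic cathepsin K, was 29.5-fold lower in S5 than in KO MEFs (5.56 in S5, 10.45 in KO and 9.40 in WT MEFs). Mmp13, a collagenase, averaged 3.22 in S5, 6.39 in KO and 9.15 in WT MEFs, and rose with growth hormone in WT MEFs (10.15 and 9.91 treated, against 8.27 and 8.28 untreated, adjusted p = 0.0136), a call lost without any 1 of the 4 WT arrays (0.0549 to 0.0653).

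Of 10 small leucine-rich proteoglycans, which bind fibrils and limit their width, 4 were higher and 2 lower for S5 minus KO, 3 and 4 for S5 minus WT, and 4 and 2 for KO minus WT (60.0, 70.0 and 60.0 percent). Prelp was 50.4-fold lower in S5 than in KO MEFs (adjusted p = 6.84e-06) and Dcn, decorin, 8.17-fold lower (adjusted p = 7.35e-06). Omd, osteomodulin, averaged 12.88 in S5, 10.75 in KO and 8.41 in WT MEFs. Of 13 basement membrane partners of collagen IV, 6 were higher and 5 lower for S5 minus KO, 5 and 6 for S5 minus WT, and 3 and 6 for KO minus WT (84.6, 84.6 and 69.2 percent). Lama5, a laminin chain, was 15.6-fold higher in S5 than in KO MEFs (adjusted p = 5.31e-07) and Nid2, a nidogen, 11.4-fold higher (adjusted p = 5.18e-07), while Lama2, another laminin chain, was 5.58-fold lower (adjusted p = 1.61e-05).

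**Figure D4:**
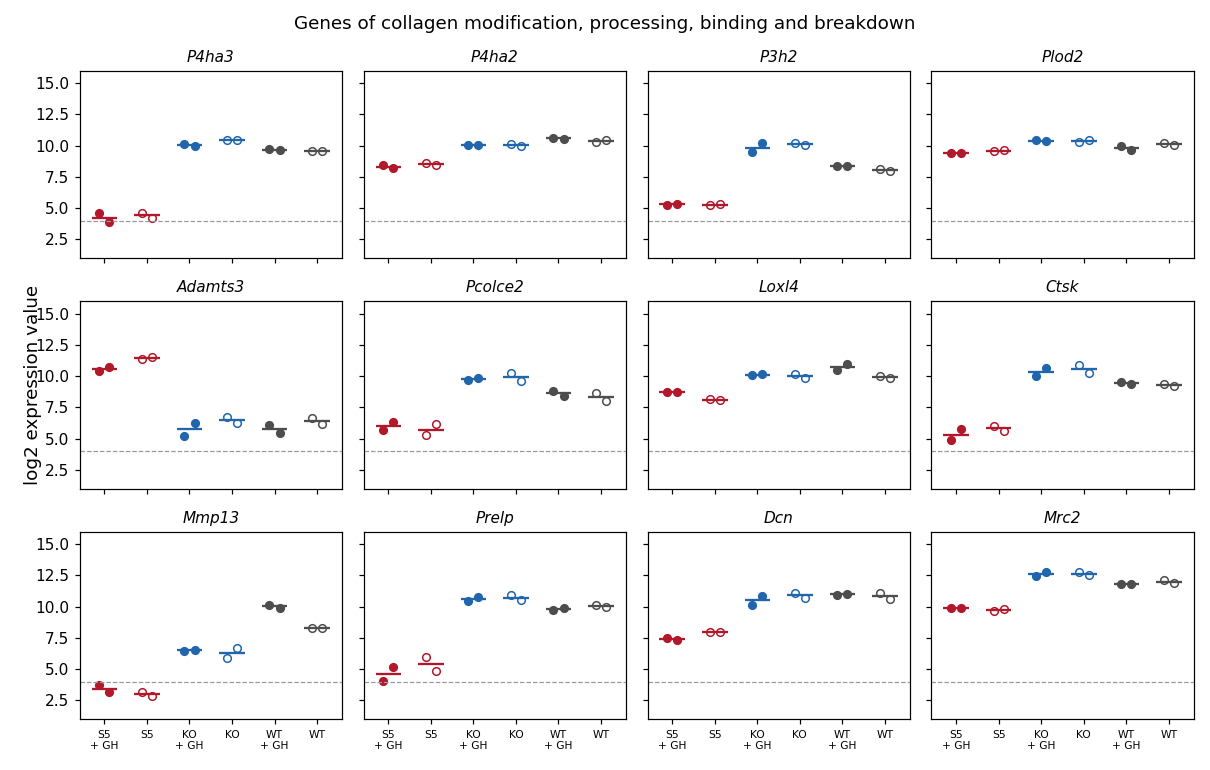
Log2 expression value (y axis) of 12 genes of collagen modification, processing, binding and breakdown on each array, by group (x axis; symbols as for the collagen genes). Adamts3 is highest in S5 MEFs, and the other 11 genes shown are lowest there, P4ha3 by 5.91 units below KO MEFs. The 12 genes were chosen for display and do not show the balance of their lists. Of 10 small leucine-rich proteoglycans, 4 were higher and 2 lower for S5 minus KO, and only the lower Prelp and Dcn are shown.

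Few collagen genes passed the test for growth hormone given for 120 minutes. With 2 arrays per group, a gene that did not pass is not thereby shown to be unchanged. In S5 MEFs 2 of 42 passed the test, both lower, or 4.76 percent beside 7.88 percent of all genes, and 6 had an unadjusted p under 0.05. In KO MEFs 0 passed with limma, beside 0.308 percent of all genes, 4 had an unadjusted p under 0.05 and the smallest adjusted p was 0.119. In WT MEFs 1 passed, lower, or 2.38 percent beside 6.0 percent of all genes, and 6 had an unadjusted p under 0.05. Without the genes below the bound on all 12 arrays, 2 of 31 passed in S5 MEFs beside 11.7 percent. In KO MEFs it was 0 of 31 beside 0.414 percent, and in WT MEFs 1 of 31 beside 9.02 percent. The abundant collagen I genes had treated minus untreated differences of -0.04 (Col1a1) and -0.02 (Col1a2) in S5 MEFs, with 95 percent intervals of -0.16 to 0.08 and -0.13 to 0.10.

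Col8a2 and Col6a3 fell in S5 MEFs. Col8a2 was 8.20 and 8.37 in treated against 9.02 and 9.21 in untreated S5 MEFs, a difference of -0.83 (SE 0.19, adjusted p = 0.0406), beside 0.23 in KO and -0.17 in WT MEFs, which did not pass. Col6a3 was 9.58 and 9.84 in treated against 10.14 and 10.53 in untreated S5 MEFs, a difference of -0.62 (SE 0.14, adjusted p = 0.0414), beside -0.11 in KO and -0.04 in WT MEFs. For both genes the treated and untreated S5 arrays did not overlap, and both calls rest on single arrays. Without treated S5 replicate 1 the adjusted p was 0.199 for Col8a2 and 0.212 for Col6a3, without untreated S5 replicate 2 it was 0.206 and 0.173, and Col8a2 also missed it without treated S5 replicate 2 (0.0855) or untreated S5 replicate 1 (0.104). Leaving out single arrays of the other genotypes also ended calls: Col6a3 with any of the 8 KO or WT arrays (0.0575 to 0.0661), and Col8a2 with any of the treated KO or WT or the untreated WT arrays (0.0602 to 0.0661).

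Col14a1 was lower with growth hormone in each genotype. The difference was -0.45 in S5 MEFs (6.46 and 6.49 treated, against 6.88 and 6.98 untreated, adjusted p = 0.104), -0.66 in KO MEFs (5.12 and 5.08 against 5.53 and 6.00, adjusted p = 0.133) and -0.61 in WT MEFs (7.28 and 7.21 against 7.92 and 7.79, adjusted p = 0.0484). The treated arrays lay below the untreated ones of their genotype without overlap, and the test was passed in WT MEFs alone. That call was lost without any 1 of the 4 WT arrays (adjusted p 0.116 to 0.209), any 1 of the 4 S5 arrays (0.0761 or 0.0813) or either treated KO array (0.0696), and with the mean of probe sets, where the difference was -0.36 (adjusted p = 0.18). A difference between these responses was not detected: S5 minus KO was 0.21 (95 percent interval -0.25 to 0.67), S5 minus WT 0.16 (-0.30 to 0.61) and KO minus WT -0.05 (-0.51 to 0.40).

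Other members had larger differences that did not pass. Col27a1 was 9.27 and 9.01 in treated against 8.01 and 8.21 in untreated WT MEFs (1.03, adjusted p = 0.0859), and Col7a1 was 0.44 in KO (adjusted p = 0.119) and 0.36 in WT MEFs (adjusted p = 0.063). Col9a3 was 1.18 in S5 MEFs (adjusted p = 0.191). In S5 MEFs Col14a1 passed without either untreated KO array (-0.45, adjusted p = 0.0113), and the low-level Col9a2 (0.49, adjusted p = 0.00544) and Col20a1 (1.82, adjusted p = 0.00215) without untreated and treated S5 replicate 2 in turn. In KO MEFs Col14a1 passed without untreated KO replicate 1 (-0.90, adjusted p = 0.0139) and Col24a1 without untreated KO replicate 2 (1.75, adjusted p = 0.0403). In WT MEFs Col5a3 (0.38, adjusted p = 0.0175) and Col27a1 (1.03, adjusted p = 0.0425) passed without either treated S5 array, and Col2a1 (0.75, adjusted p = 0.025) and the low-level Col9a1 (1.89, adjusted p = 0.00132) without treated WT replicate 2. Col7a1 passed there without either treated KO array (adjusted p = 0.0491). Of the 3 tests of a difference between responses, 0 of 42 genes passed in any with limma. For S5 minus KO 1.13 percent of all genes passed and 4 members had an unadjusted p under 0.05 (smallest adjusted p 0.159), for S5 minus WT 2.92 percent and 4 (0.174), and for KO minus WT 1.27 percent and 2 (0.286). For Col8a2 the S5 minus KO response difference was -1.05 (95 percent interval -1.67 to -0.44, adjusted p = 0.159), and without untreated KO replicate 1 it was -1.37 and passed (adjusted p = 0.0183). The other genes that passed such a test with 1 array left out were Col9a1, Col9a2, Col20a1 and Col24a1, each in the low mode on some or all of the arrays.

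**Figure D5:**
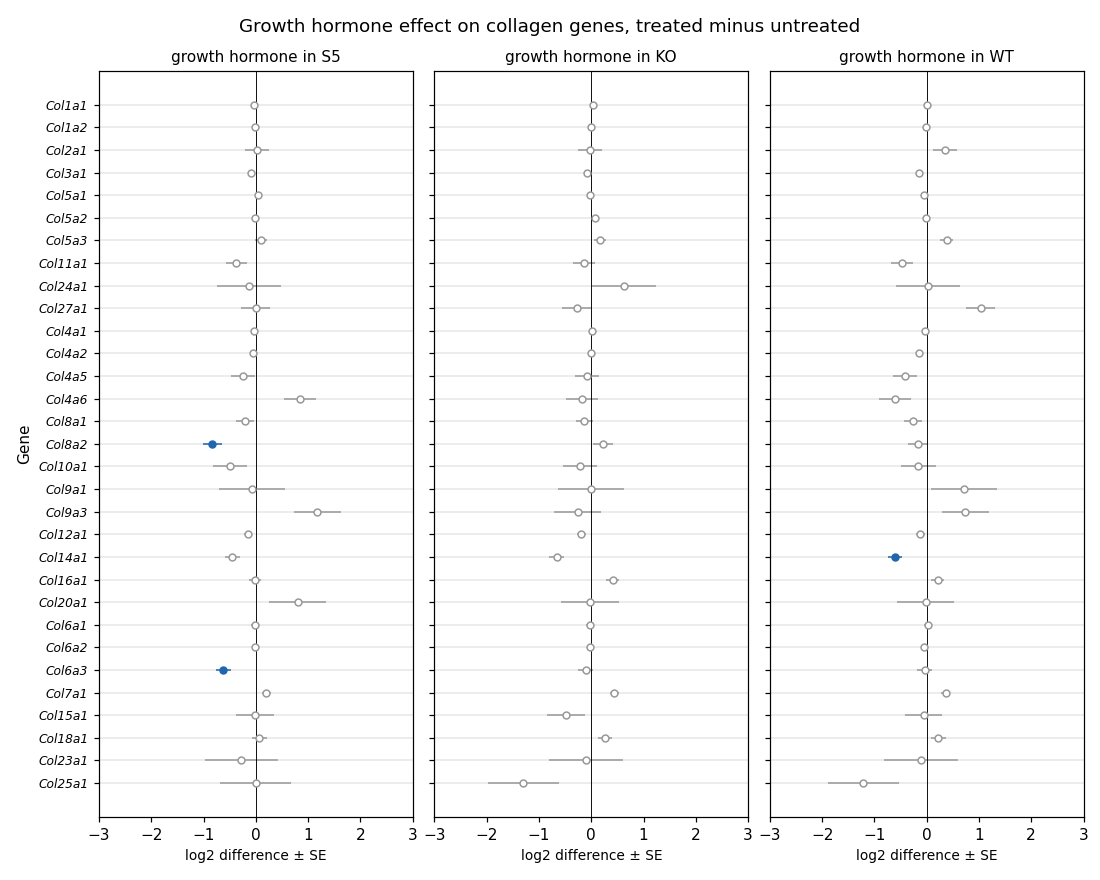
Log2 difference, treated minus untreated (x axis), with its SE (bars) for the 31 collagen genes with a value above 4 on any array (y axis, by class) in S5, KO and WT MEFs. Filled points passed the test: Col8a2 and Col6a3 in S5 MEFs and Col14a1 in WT MEFs, each to the left of 0.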

How the data were processed

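The deposited values are log2 expression values of 45101 probe sets; no label states the scale, which was read from their range (0.99 to 15.95). GCOS and RMA are named in the submitters' processing notes, without settings. RNA was extracted with TRIzol and labelled as biotinylated cRNA, per the labels' protocols. Probe sets with several genes (932) or none (9160) and 64 control probe sets were left out. A gene was read on its highest-mean probe set, and all 42 collagen symbols were in the RefSeq gene table.

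Tests were made with limma 3.58.1 under R 4.3.3, with 6 group means, 6 residual and 1.2 prior degrees of freedom, two-sided, Benjamini-Hochberg over 18193 genes at 0.05. Genotype differences average the treated and untreated difference, so n is 4 arrays a genotype. Comparisons share groups and are not independent. In simulated data a log2 change of 1 was recovered for 56 (growth hormone in S5), 58 (KO), 68 (WT), 88 (S5 minus KO), 78 (S5 minus WT) and 81 (KO minus WT) percent of genes. For the tests of a difference between responses it was 48 (S5 minus KO), 43 (S5 minus WT) and 33 (KO minus WT) percent. The changed genes were drawn from those with a mean of 4 or more, so recovery in the low mode was not measured. Each simulation changed 100 of 18193 genes by 1 unit and 100 by 2 units. This is far below the share called in the genotype comparisons, so recovery there may differ from that in the data.

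Array values are printed for 10 abundant or collagen VI chains and for up to 12 called collagen genes per comparison with the largest differences, and up to 4 genes per related list with the smallest adjusted p. Members and lists were chosen with earlier results of these data known. Alternatives were the mean of probe sets, a filter on low values, 2 scalings, the groups compared alone, a trended prior, array weights, the replicate number as a block, 1 treatment alone and each array left out.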

Additional observations from a re-analysis of the deposited data

How the results depend on the processing

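The collagen results and the named calls of the related genes were recomputed under the alternatives, those of the related genes being added after the data were seen. The 1-treatment alternatives apply to genotype comparisons alone, and genes removed by the filter on low values have no value there. Of 57 calls of a collagen gene in a comparison, 35 were kept under all alternatives run. The number of collagen genes called for growth hormone in S5 MEFs, 2 as reported, was 1 with arrays centred on their median, with quantile normalization, with only the groups compared and with a trended prior, and 4 with array weights; with only the groups compared the gene called was Col10a1 (-0.49, adjusted p = 0.0433), and Col8a2 (0.069) and Col6a3 (0.207) were lost. For growth hormone in WT MEFs it was 1 as reported, 2 with the filter on low values or array weights, and 0 with quantile normalization, only the groups compared or a trended prior; with centred arrays the 1 gene called was Col27a1 (1.02, adjusted p = 0.0496) and with the mean of probe sets Col5a3 (0.44, adjusted p = 0.00742), not Col14a1. For related genes, only the up to 4 calls with the smallest adjusted p per list and comparison were recomputed, and weaker calls were not tried. Of these 92 calls, 78 were kept under all alternatives and none turned sign. This share is therefore not comparable with that of the collagen calls. The mean of probe sets moved Runx3 to 3.20, Sox9 to -0.69, Adamts3 to 2.72 and Loxl4 to -0.84 (S5 minus KO), which passed. S5 minus WT had 13 calls on the treated arrays alone. Col6a2 in S5 minus WT turned to 0.02 with centred arrays. Leaving out 1 array gave 0 to 2 calls for growth hormone in S5 and in WT MEFs, 0 to 1 in KO MEFs, 16 to 19 for KO minus WT, 17 to 19 for S5 minus KO, 15 to 19 for S5 minus WT, and 0 to 1 for each difference between responses. Deviations of same-numbered arrays correlated with r from -0.42 to 0.27 over 15 pairs, the lowest between treated and untreated KO MEFs. These values do not settle whether the array numbers within groups pair samples. With the replicate number as a block the hormone calls were 0 in S5 and 0 in WT MEFs, and the Col4a5 call for S5 minus WT was lost (adjusted p = 0.0534). Signal near the low mode and 2 arrays per group limit what could be detected.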

Other observations

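Probe sets of 1 collagen gene did not always give the same difference. The 2 other Col8a1 probe sets had S5 minus KO differences of -2.21 (9.90 in S5 and 12.11 in KO MEFs) and -3.24 (4.26 in S5 and 7.50 in KO MEFs), against -0.93 for the one reported. Their KO minus WT differences were 1.18 and 1.53, against 0.29.

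Single arrays carried some low-level collagen signals. Col20a1 was 4.38 and 2.34 on the 2 treated S5 arrays and at or below 2.77 on every other array. Col9a1 was 4.89 and 2.55 on the 2 treated WT arrays and at or below 3.19 elsewhere. Col25a1 was 5.24 and 3.32 on the 2 untreated KO arrays, and Col23a1 5.35 and 3.05. None of these 4 genes passed a hormone test with all arrays.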
